A study of Mus musculus with 8 samples.

Results

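The mitochondrial protein import machinery was followed at the level of RNA in mouse 3T3-L1 adipocytes, as the 38 protein-coding genes that carry a Timm or Tomm symbol or belong to a short list of partners, out of 43629 genes in the count file. Of the 38, 16 are Timm genes, 10 are Tomm genes, and the other 12 are Samm50, Mtx1, Mtx2, Chchd4, Dnajc19, Grpel1, Grpel2, Hspa9, Pmpca, Pmpcb, Hspd1 and Hspe1. A filter on low counts kept 35 of the 38 for testing. Tomm6, with 1 to 6 counts per library, and Timm8a2 and Tomm20l, with 0 to 2 counts each, did not pass it. For Tomm6 the annotation places 76.0% of the exon bases inside a second gene on the same strand, Gm21981, which also had only 0 to 6 counts, so that its RNA cannot be judged from this file.

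Cells of the mouse 3T3-L1 line grow as pre-adipocytes and can be turned into fat-storing adipocytes in the dish. A66 inhibits p110α, a catalytic subunit of PI3-kinase. On day 8 of differentiation the cells were left untreated, or received 2 µM A66, 0.5 mM palmitate (a saturated fatty acid, carried on albumin at a molar ratio of 3 to 1), or palmitate plus A66 for 24 h, with 2 libraries in each of the 4 groups. These doses and the untreated control come from the sample labels, whereas the study's methods give a lower A66 dose and a DMSO vehicle. All groups are the same unmodified line. No transcript was used to check the treatment labels, so every direction given depends on those labels. The methods speak of biological repeats without saying what separated them, and p-values measure only the spread between these libraries.

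Libraries held 42247091 to 57529803 counts, and 3 counts, taken as the floor, correspond to 0.0521 to 0.0710 CPM (counts scaled to the library total, with TMM factors of 0.982 to 1.013 in all other CPM values), which covers counting error only. All 8 adipocyte markers (Adipoq, Fabp4, Plin1, Cidec, Pparg, Cebpa, Lpl and Slc2a4) were expressed in every library. Their summed level was 16539.5 and 16693 CPM without treatment, 16274 and 16826 under A66, 14737 and 15528 under palmitate, and 14237 and 15212 under both agents. Of the 6 preadipocyte or fibroblast markers, Dlk1 was at 0 in all 8 libraries and the summed level was 3903 to 4592 CPM. Of the 4 macrophage markers, 2 were at or under the floor in every library, Adgre1 at 0, and the sum was 2.75 to 5.94 CPM. At an adjusted p under 0.05, Lpl was lower with palmitate than without treatment (log2 fold change -0.19, adjusted p = 0.0331, edgeR, Benjamini-Hochberg). Of 5 tested preadipocyte or fibroblast markers, 1 was higher with A66 and 1 was higher with palmitate, each against untreated cells. The part of these markers in the import values was not tested. In bulk RNA, fewer cells of a type and less RNA per cell cannot be told apart.

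Most mitochondrial proteins are made in the cytosol and enter the organelle as unfolded chains. They cross the outer membrane through the TOM complex (Tomm genes), after which small chaperones of the intermembrane space, the TIM22 and TIM23 complexes of the inner membrane, and the sorting and assembly machinery of the outer membrane distribute them. A motor built around the mitochondrial Hsp70 (Hspa9) pulls chains into the matrix, where a peptidase (Pmpca and Pmpcb) removes the targeting sequence and a chaperonin (Hspd1 and Hspe1) folds the product. In adipocytes this route supplies the enzymes of fatty acid oxidation and respiration.

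The import genes were abundant as a group and differed widely from each other. They took between 0.425% and 0.462% of all counts in a library. Divided by the length of the principal transcript, the 35 tested members had a median mean level of 25.8 CPM per kilobase, against 7.22 for all genes tested (15.7 against 4.81 with the summed length of all exons). The members are all protein-coding, whereas the genes tested were not limited to protein-coding ones. The matrix chaperones stood at the top, with 515 CPM per kilobase for Hspa9, 339 for Hspd1 and 182 for Hspe1. The ranges of these 3 genes over the 8 libraries, 486 to 549, 322 to 363 and 176 to 194 CPM per kilobase, did not overlap, and they kept ranks 1 to 3 when lengths were taken over all annotated exons.

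**Figure D1:**
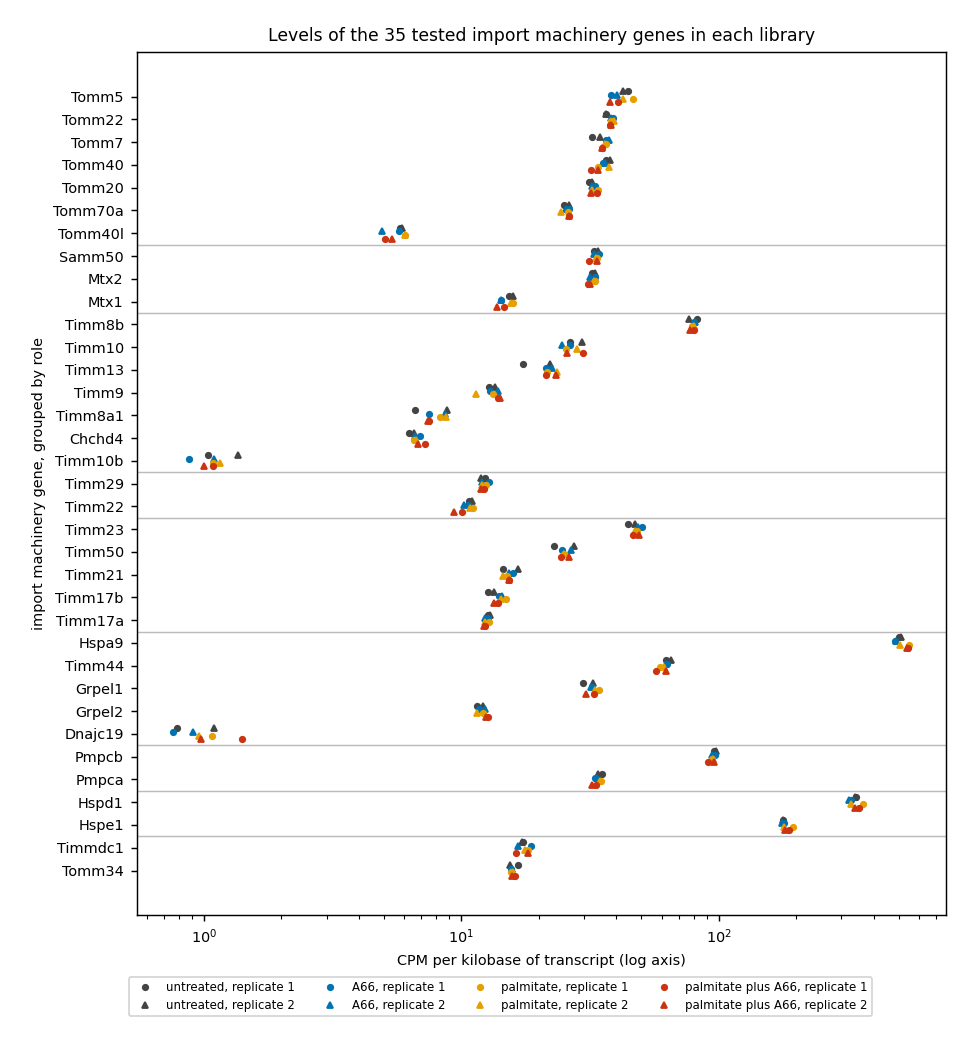
Level of each of the 35 tested import genes in each of the 8 libraries, as CPM per kilobase of principal transcript on a log axis, with genes grouped by role and points coloured by group (circles for replicate 1, triangles for replicate 2). Hspa9, Hspd1 and Hspe1 lie far to the right of the other genes, Dnajc19 and Timm10b far to the left, and the points of a gene mostly lie close together.

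Below the matrix chaperones followed Pmpcb at 95.01 CPM per kilobase, Timm8b at 79.7, Timm44 at 61.7 and Timm23 at 47.7. The middle of the order was crowded. Tomm22, Tomm7, Tomm40, Pmpca, Samm50, Tomm20, Mtx2 and Grpel1 had means from 32.1 to 37.9 CPM per kilobase, and neighbours among them overlapped from library to library. At the bottom lay Timm10b at 1.09 and Dnajc19 at 0.996 CPM per kilobase, the latter with 22 to 45 counts per library. With summed exon length in place of transcript length, Pmpcb moved from rank 4 to rank 12 and Tomm40 from rank 11 to rank 21, so that the middle ranks depend on the annotation. Ratios between genes depend on it too, and where summed exon length moved a ratio by over 1.5 times both values are given.

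Promoter sequence was examined because nuclear genes of mitochondrial proteins are known for sites of a few widely expressed factors, among them ETS family members, NRF1 and YY1, and the matrix chaperones for heat shock elements. RefSeq windows on GRCm38.p6, 300 bases long and reaching 50 bases past the start, were found for 33 of the 38 members, in 36 windows. Grpel2, Hspa9, Timm21, Tomm40l and Tomm7 had none. Searched on both strands, the letters CCGGAAGT, a form of the site of ETS factors, occurred in 9 of the 36 windows (25.0%), against 3.89% of all 32851 windows. They were those of Mtx2, Pmpcb, Timm10, Timm10b, Timm23, Timm29, Timm8a2, Timmdc1 and Tomm70a. The heat shock element (GAA, TTC and GAA, each parted by NN) occurred in 3 windows (8.3%, against 0.6% of all), those of Hspd1, Hspe1 and Timm9. The YY1 letters AAGATGGCG occurred in 2 (5.6%, against 1.4%), those of Mtx1 and Timm50, and the NRF1 palindrome (GCGC, AT and GCGC without a gap) in 0, against 0.97% of all. A match is a description of the sequence and not evidence of binding.

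The following 4 windows show both kinds of match, each as the 250 bases before the start, 5′ to 3′ on the strand of the gene, with the matched letters in capitals. Hspe1 (chr1:55087898-55088147, plus strand) is shown for the heat shock element, which occurs there as a pair of overlapping matches, 1 on each strand, from 55088059 to 55088076. The same stretch lies in 1 of the 2 RefSeq windows of Hspd1, on the minus strand from 55087883 to 55088182. Timm23 (chr14:32201892-32202141, minus strand), Pmpcb (chr5:21736910-21737159, plus strand) and Mtx2 (chr2:74825562-74825811, plus strand) are shown for the ETS letters, which read as their reverse complement in Timm23. Counted back from the RefSeq start, these lie at -48 to -41 in Timm23, -16 to -9 in Pmpcb and -25 to -18 in Mtx2. Mtx2 has a second match from 74825818 to 74825825, past its start and so outside the sequence shown. The match in Pmpcb, from 21737144 to 21737151, falls inside the gene as GENCODE M21 annotates it, which starts at 21737141.
Hspe1: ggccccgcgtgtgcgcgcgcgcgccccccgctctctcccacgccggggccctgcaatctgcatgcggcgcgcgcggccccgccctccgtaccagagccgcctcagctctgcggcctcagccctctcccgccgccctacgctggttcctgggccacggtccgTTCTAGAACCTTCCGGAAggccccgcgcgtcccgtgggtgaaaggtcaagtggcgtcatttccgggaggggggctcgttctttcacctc
Timm23: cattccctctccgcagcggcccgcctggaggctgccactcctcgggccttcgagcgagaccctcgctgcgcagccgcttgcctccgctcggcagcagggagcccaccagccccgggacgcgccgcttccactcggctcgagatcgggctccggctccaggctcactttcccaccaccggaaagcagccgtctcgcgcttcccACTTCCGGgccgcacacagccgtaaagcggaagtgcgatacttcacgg
Pmpcb: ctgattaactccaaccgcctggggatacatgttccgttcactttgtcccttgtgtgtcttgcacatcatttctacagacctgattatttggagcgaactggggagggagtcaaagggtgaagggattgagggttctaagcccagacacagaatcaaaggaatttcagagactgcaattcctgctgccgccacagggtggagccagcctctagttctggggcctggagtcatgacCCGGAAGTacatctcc
Mtx2: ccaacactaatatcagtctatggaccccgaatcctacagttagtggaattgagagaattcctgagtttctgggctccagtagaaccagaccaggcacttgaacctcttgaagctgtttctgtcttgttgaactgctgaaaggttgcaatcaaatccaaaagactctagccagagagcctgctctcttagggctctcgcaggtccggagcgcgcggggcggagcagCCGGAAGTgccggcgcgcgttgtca

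The treatments were compared to ask whether p110α inhibition, palmitate, or their combination altered expression of the import genes. None of the 35 tested members changed in any comparison at an adjusted p under 0.05 (edgeR quasi-likelihood test with Benjamini-Hochberg adjustment over all genes tested). For A66 against untreated cells, 0 of 35 members were called, where 1.84% of all 14158 genes were. The same count was 0 of 35 for palmitate against untreated (1.17% of 14587 genes), 0 for palmitate plus A66 against palmitate (2.81%), 0 for palmitate plus A66 against A66 (2.73%), and 0 for the interaction of A66 with palmitate (0.00686%, a single gene). At these background shares, 35 genes would hold at most about 1 call, so a count of 0 does not set the members apart from other genes.

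An unadjusted p under 0.05 was reached by 3 members with A66, 4 with palmitate, 5 with A66 added to palmitate, 2 with palmitate added to A66 and 2 in the interaction. As shares of the 35 these were 8.57%, 11.4%, 14.3%, 5.71% and 5.71%, beside 12.8%, 12.0%, 14.4%, 14.6% and 7.92% of all genes. The Wald test of DESeq2 called 0 members in 4 of these comparisons and 1, Hspa9, for palmitate plus A66 against A66. It gave no adjusted p for 23 of the 35 members in the interaction, which therefore could not be called there. In the other comparisons it gave none for 1 to 4 members. The comparisons share libraries (the untreated group enters the first 2, the A66 and palmitate groups enter others), so their values are not independent of each other.

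**Figure D2:**
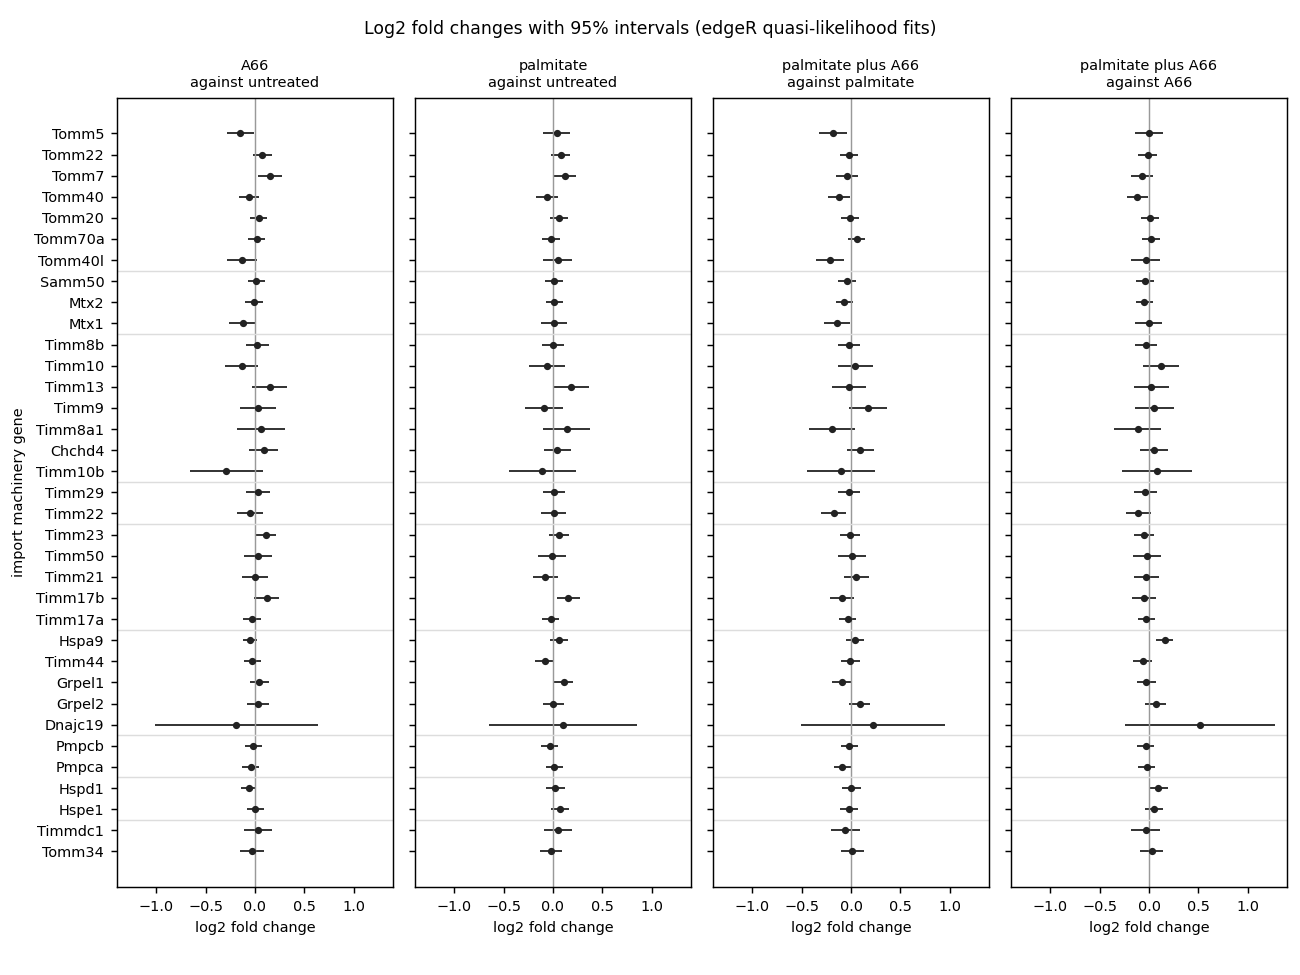
Log2 fold change (points) with its 95% interval (lines) for each tested import gene in 4 comparisons, from the edgeR quasi-likelihood fits, with genes grouped by role. Most intervals cross 0 and stay within 0.3 on either side, and the widest belongs to Dnajc19.

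The size of change that the data still allow was small for most members. Median log2 fold changes of the members were 0.0051 with A66, 0.013 with palmitate, -0.019 for A66 added to palmitate and -0.024 for palmitate added to A66, beside -0.0011, 0.00053, -0.00079 and 0.00044 over all genes. The 95% interval lay wholly within a 1.2-fold change in either direction for 26 of 35 members with A66, 29 with palmitate, 27 for A66 added to palmitate and 31 for palmitate added to A66. Within 1.5-fold, a limit that like the first was chosen after the values were seen, the counts were 33, 34, 34 and 34. The exceptions were Dnajc19 in all 4 and Timm10b with A66, the tested members with the lowest counts.

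Complete separation of the libraries of 2 groups was a smaller share of the members than of all genes in 5 of 8 counts. The A66 pair lay wholly above the untreated pair for 5 members and below for 10 of 35, or 14.3% and 28.6%, where all genes gave 20.3% and 22.3%. With palmitate 9 members (25.7%) lay above and 2 (5.71%) below, beside 20.4% and 20.2% of all genes. For A66 added to palmitate 5 (14.3%) lay above and 12 (34.3%) below, beside 21.9% and 22.4%. For palmitate added to A66, 6 (17.1%) lay above and 7 below, beside 23.2% and 23.4%.

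Among the TOM genes, Tomm5, a small subunit of the channel complex, had the highest mean per kilobase of principal transcript at 41.6 CPM, whereas with summed exon length Tomm22, Tomm7 and Tomm20 lay above it (36.0, 35.5 and 32.6 against 30.6). On GRCm38, with coordinates from GENCODE M21, Tomm5 (ENSMUSG00000078713, chromosome 4 from 45105208 to 45108114) had 28.3 and 27.2 CPM without treatment, 24.3 and 25.7 under A66, 29.8 and 27.1 under palmitate and 26.1 and 24.1 under both agents. Both A66 libraries lay below both untreated ones, and both libraries with palmitate plus A66 lay below both with palmitate. The log2 fold changes were -0.15 (standard error, SE, 0.067, adjusted p = 0.349) with A66 and -0.18 (SE 0.068, adjusted p = 0.175) for A66 added to palmitate, in edgeR's quasi-likelihood test, adjusted by Benjamini-Hochberg. Tomm5 is described because it led its role by level per kilobase of principal transcript. Members described below that did not lead their role were picked after their values were seen, most of those given with per-library values for an unadjusted p under 0.05.

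Tomm7, a small subunit that modulates the stability of the complex (ENSMUSG00000028998, chromosome 5 from 23838944 to 23844161), showed 36.2 and 38.8 CPM without treatment, 41.1 and 42.2 under A66, 40.9 and 40.7 under palmitate and 39.7 and 39.7 under both agents. The untreated libraries were the lowest pair in all 8. Its log2 fold change was 0.15 with A66 (SE 0.058, adjusted p = 0.231) and 0.12 with palmitate (SE 0.054, adjusted p = 0.362, edgeR, Benjamini-Hochberg). The interaction estimate was -0.19 (adjusted p = 0.549, edgeR).

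Tomm40, the pore-forming channel protein (ENSMUSG00000002984, chromosome 7 from 19701313 to 19715438), stood at 60.3 and 62.5 CPM without treatment, 58.3 and 59.4 under A66, 56.1 and 61.8 under palmitate and 52.5 and 55.9 under both agents. Both combined libraries lay below all 6 others. With A66 added to palmitate the log2 fold change was -0.12 (adjusted p = 0.279), and with palmitate added to A66 it was -0.12 (adjusted p = 0.294, edgeR, Benjamini-Hochberg). Tomm40l, its paralogue (ENSMUSG00000005674, chromosome 1 from 171216011 to 171222514), had 27.4 and 27.8 CPM without treatment, 27.1 and 23.2 under A66, 28.6 and 28.4 under palmitate and 23.9 and 25.3 under both agents. Both combined libraries lay below both palmitate libraries, with a log2 fold change of -0.21 (SE 0.070, adjusted p = 0.119, edgeR). Of its exon bases 64.3% lie opposite Nr1i3, a gene with 1 to 4 counts per library.

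The receptors Tomm20, Tomm22 and Tomm70a, which bind arriving precursor proteins, ranged from 154 to 167, 57.3 to 61.3 and 146 to 157 CPM over the 8 libraries. For Tomm22 both A66 libraries and both palmitate libraries lay above both untreated ones, with log2 fold changes of 0.075 (adjusted p = 0.560) and 0.078 (adjusted p = 0.530, edgeR, Benjamini-Hochberg).

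In the sorting and assembly machinery, which inserts barrel-shaped proteins into the outer membrane, Samm50 is the central barrel protein, at 33.3 CPM per kilobase of principal transcript. Mtx2 was close to it at 32.3, with overlapping ranges over the libraries, and lay above it with summed exon length (25.9 against 23.5). Samm50 (ENSMUSG00000022437, chromosome 15 from 84192241 to 84217267) had 151 and 157 CPM without treatment, 159 and 152 under A66, 156 and 155 under palmitate and 145 and 156 under both agents, with all groups overlapping. Mtx1 and Mtx2, the metaxins that accompany it, differed in level, and Mtx2, at 91.4 to 97.5 CPM, was 2.08 to 2.32 times as abundant per kilobase as Mtx1 in every library (3.70 to 4.13 times with summed exon length). Mtx1 (ENSMUSG00000064068, chromosome 3 from 89209081 to 89227088) had 24.8 and 25.6 CPM without treatment, 23.0 and 23.1 under A66, 25.7 and 25.2 under palmitate and 23.7 and 22.3 under both agents. Both combined libraries lay below both palmitate libraries, and the log2 fold change for A66 added to palmitate was -0.14 (adjusted p = 0.301, edgeR, Benjamini-Hochberg). Of the exon bases of Mtx1, 30.1% lie opposite other genes, and whether the counting used strand is not given in the sources used here.

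The small chaperones of the intermembrane space escort hydrophobic precursors between the membranes, and Chchd4 introduces disulfide bonds into proteins imported there. Timm8b was the highest of them per kilobase at 79.7 CPM. Timm8b (ENSMUSG00000039016, chromosome 9 from 50603910 to 50605320) had 42.7 and 39.9 CPM without treatment, 41.7 and 41.8 under A66, 41.0 and 41.6 under palmitate and 41.6 and 40.0 under both agents, with the 2 untreated libraries as the highest and the lowest. It was 8.73 to 12.5 times as abundant per kilobase as its paralogue Timm8a1, and 38.8% of the 100-base windows of Timm8a1 also occur in Gm9797. Timm8a1 ranged over 9.37 to 12.5 CPM, and Timm10b, another small chaperone of the group, over 2.86 to 4.44 CPM.

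Timm13, the partner of Timm8 proteins (ENSMUSG00000020219, chromosome 10 from 80899450 to 80900969), had 21.3 and 27.1 CPM without treatment, 26.2 and 27.6 under A66, 26.4 and 29.0 under palmitate and 26.1 and 28.6 under both agents. Untreated replicate 1 stood apart as the lowest of all 8 libraries, and untreated replicate 2 lay among the treated ones. The log2 fold change with palmitate was 0.19 (SE 0.085, adjusted p = 0.374, edgeR, Benjamini-Hochberg), and with untreated replicate 2 left out it became 0.38 (adjusted p = 0.0322, edgeR). For A66 it was 0.15 (adjusted p = 0.495), and 0.34 (adjusted p = 0.00306, edgeR) without that library. In both fits replicate 1 is then the only untreated library and adds nothing to the estimate of spread, which for A66 comes from the A66 pair alone and for palmitate from the 3 treated groups.

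Timm9 and Timm10 form the main hexamer of this group, and Timm10 was 1.77 to 2.47 times as abundant per kilobase as Timm9 (6.48 to 9.05 times with summed exon length). Their levels were 11.3 to 13.9 and 16.98 to 20.6 CPM, with no adjusted p under 0.05. Chchd4 (ENSMUSG00000034203, chromosome 6 from 91462172 to 91473546) had 21.7 and 22.7 CPM without treatment, 24.1 and 23.0 under A66, 22.7 and 23.1 under palmitate and 25.2 and 23.7 under both agents. The A66 pair lay wholly above the untreated pair by a log2 fold change of 0.089 (adjusted p = 0.660, edgeR, Benjamini-Hochberg).

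In the carrier translocase, which inserts metabolite carriers into the inner membrane, Timm29 was highest per kilobase at 12.2 CPM and Timm22, its channel subunit, followed at 10.5. Timm29 (ENSMUSG00000048429, chromosome 9 from 21592722 to 21595970) had 39.2 and 38.0 CPM without treatment, 40.6 and 38.2 under A66, 39.6 and 38.2 under palmitate and 38.9 and 37.9 under both agents, with groups overlapping throughout. Timm22 (ENSMUSG00000020843, chromosome 11 from 76406952 to 76416292) had 30.1 and 31.2 CPM without treatment, 30.0 and 29.0 under A66, 31.2 and 30.4 under palmitate and 28.3 and 26.4 under both agents. Both combined libraries lay below all 6 others, and the log2 fold change was -0.17 for A66 added to palmitate (SE 0.061, adjusted p = 0.149, edgeR, Benjamini-Hochberg).

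In the presequence translocase, which receives matrix proteins, the channel gene Timm23 was highest at 47.7 CPM per kilobase. Timm23 (ENSMUSG00000013701, chromosome 14 from 32180162 to 32201898) had 52.2 and 55.4 CPM without treatment, 59.0 and 57.0 under A66, 56.6 and 55.7 under palmitate and 54.5 and 57.3 under both agents. The A66 pair lay wholly above the untreated pair, with a log2 fold change of 0.11 (SE 0.051, adjusted p = 0.362, edgeR, Benjamini-Hochberg). Of its 100-base windows 85.8% also occur in 5 other annotated genes, all with 0 to 2 counts, so the split of its reads is uncertain.

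Timm17a and Timm17b are alternative partners of Timm23 with near-equal levels per kilobase in these cells. In CPM Timm17a was higher (mean 91.5 against 33.0), and the near-equality rests on annotated transcript lengths of 7280 and 2381 bases. Timm17a varied least of all tested members over the 8 libraries, with 89.5 to 94.2 CPM and a coefficient of variation of 1.87%. Timm17b (ENSMUSG00000031158, chromosome X from 7899357 to 7908351) had 30.3 and 31.9 CPM without treatment, 33.2 and 34.3 under A66, 35.6 and 33.9 under palmitate and 33.1 and 32.1 under both agents, and each treated group lay above both untreated libraries. Its log2 fold change with palmitate was 0.16 (SE 0.058, adjusted p = 0.236, edgeR, Benjamini-Hochberg). The ratio of Timm17a to Timm17b per kilobase was 0.995 and 0.967 in untreated cells and between 0.856 and 0.912 in the 6 treated libraries, a separation noticed in the data and not tested. Timm50, the presequence receptor, and Timm21, a link to the TOM complex, ranged over 34.7 to 41.4 and 35.1 to 40.2 CPM.

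The import motor held the member that came closest to a call. Hspa9 (ENSMUSG00000024359, chromosome 18 from 34937414 to 34954357) had 1525 and 1551 CPM without treatment, 1480.5 and 1486 under A66, 1672 and 1538 under palmitate and 1660.4 and 1648 under both agents. Both libraries with palmitate plus A66 lay above both with A66, while the palmitate libraries lay on either side of the combined ones. The log2 fold change of palmitate plus A66 against A66 was 0.16 (SE 0.044, 95% interval 0.067 to 0.25, adjusted p = 0.0539) in edgeR's quasi-likelihood test, adjusted by Benjamini-Hochberg. This adjusted p lay between 0.00164 and 0.379 over the alternatives, and 7 of them put it under 0.05.

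The other comparisons gave Hspa9 log2 fold changes of -0.049 with A66, 0.062 with palmitate and 0.044 for A66 added to palmitate (adjusted p = 0.625, 0.624 and 0.714, edgeR). The adipocyte markers moved in the same comparison as Hspa9, where 5 of 8 were lower (Adipoq, Plin1, Cidec, Lpl and Slc2a4) with palmitate plus A66 than with A66. The macrophage marker Cd68 was higher, by 0.91 (adjusted p = 0.00140, edgeR, Benjamini-Hochberg), at a low level. All 4 macrophage markers together summed to only 2.75 to 5.94 CPM over the libraries. The part of the adipocyte markers or of Cd68 in the Hspa9 result was not tested.

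**Figure D3:**
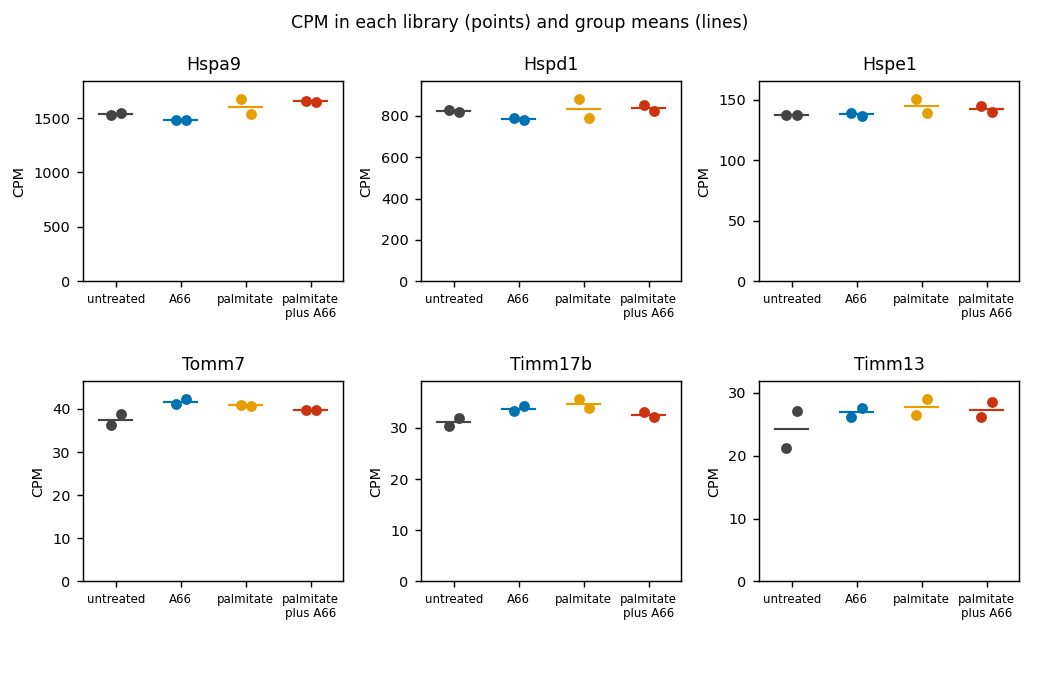
CPM of 6 import genes in each library (points) with group means (lines), on axes that start at 0, with 2 libraries in each of the 4 groups. The 2 combined libraries of Hspa9 lie above the 2 with A66, and untreated replicate 1 of Timm13 lies below every other library.

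Grpel1 and Grpel2 are nucleotide exchange factors of Hspa9, and Grpel1 was 2.44 to 2.89 times as abundant per kilobase as Grpel2 (4.08 to 4.83 times with summed exon length), which ranged over 46.3 to 51.1 CPM. Grpel1 (ENSMUSG00000029198, chromosome 5 from 36464998 to 36474080) had 105 and 115 CPM without treatment, 114 and 113 under A66, 121 and 117 under palmitate and 115 and 107 under both agents, and its log2 fold change with palmitate was 0.11 (SE 0.047, adjusted p = 0.337, edgeR, Benjamini-Hochberg). Hspa9 exceeded Grpel1 15.0 to 17.7 times per kilobase. Timm44, the anchor of the motor, ranged over 102 to 117 CPM. Dnajc19, a J-domain partner of the motor, gave the largest estimate of any member, 0.51 for palmitate added to A66, with an interval of -0.25 to 1.28 at 22 to 45 counts.

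The processing peptidase is a pair of unlike subunits, of which Pmpcb carries the catalytic site. Pmpcb (ENSMUSG00000029017, chromosome 5 from 21737141 to 21757152) had 155 and 157 CPM without treatment, 156 and 152 under A66, 152 and 153 under palmitate and 146 and 155 under both agents. Both palmitate libraries lay below both untreated ones by a log2 fold change of -0.033 (adjusted p = 0.821, edgeR, Benjamini-Hochberg). Pmpca ranged over 101 to 111 CPM, and Pmpcb was 2.69 to 2.97 times as abundant per kilobase, or 1.15 to 1.27 times with summed exon length. Of the exon bases of Pmpca, 20.4% lie opposite Inpp5e.

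The chaperonin genes Hspd1 (Hsp60) and Hspe1 (Hsp10) lie on opposite strands of chromosome 1 with overlapping ends. The stretch with the heat shock element letters falls inside the annotated span of Hspd1, some of whose transcripts start beyond it. Hspd1 (ENSMUSG00000025980, chromosome 1 from 55077835 to 55088243) had 827 and 818 CPM without treatment, 790.5 and 780.1 under A66, 880.2 and 791 under palmitate and 852 and 822 under both agents. Hspe1 (ENSMUSG00000073676, chromosome 1 from 55088132 to 55091307) had 138 and 138 CPM without treatment, 139 and 136 under A66, 150.2 and 139 under palmitate and 145 and 139.6 under both agents. Of the 100-base windows of Hspd1, 26.9% also occur in other genes, among them the pseudogene Hspd1-ps3 with 80 to 144 counts. For both genes the 2 combined libraries lay above the 2 with A66, with log2 fold changes of 0.092 (adjusted p = 0.362) for Hspd1 and 0.047 (adjusted p = 0.6997) for Hspe1 in edgeR's test, adjusted by Benjamini-Hochberg. The ratio of Hspd1 to Hspe1 per kilobase was 1.81 to 1.92 over the 8 libraries, or 3.17 to 3.36 with summed exon length. Timm9, the other member with heat shock element letters, had a log2 fold change of 0.055 (adjusted p = 0.855, edgeR) for palmitate added to A66.

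Hspa9, Hspd1 and Hspe1 together made up 56.2% to 59.3% of the summed CPM of all members. That sum was 4312 and 4395 CPM without treatment, 4286 and 4253 under A66, 4589 and 4331 under palmitate, and 4485 and 4449.8 under both agents. Without these 3 genes it ranged from 1823 to 1888 CPM.

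Timmdc1 and Tomm34 carry the names but have other known roles, in the assembly of respiratory complex I and as a cytosolic co-chaperone. Timmdc1 (ENSMUSG00000002846, chromosome 16 from 38498347 to 38522663) was the higher per kilobase at 17.5 CPM, with 27.3 and 27.1 CPM without treatment, 29.4 and 26.1 under A66, 28.6 and 27.7 under palmitate and 25.6 and 28.5 under both agents. Tomm34 ranged over 35.7 to 38.2 CPM. Neither gene had an adjusted p under 0.05 in any comparison.

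The genes around the import route were too few to be set apart from the background by their counts of calls. Of 14 partners of import (Pam16, Dnajc15, Oxa1l, Mtch1 and others), 0 were called in the first 3 comparisons and 1 was lower for palmitate plus A66 against A66, beside 1.84%, 1.17%, 2.81% and 2.73% of all genes. That gene, Mtch1, an outer membrane insertase, fell by 0.18 on the log2 scale (SE 0.040, adjusted p = 0.0135, edgeR, Benjamini-Hochberg) and did not pass when any of the 4 libraries compared was left out (adjusted p up to 0.158, edgeR). Of 13 mitochondrial protease and folding genes and 7 genes of the cristae organising complex, 0 were called in any of these 4 comparisons.

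The cytosolic heat shock chaperones, which keep proteins folded outside the mitochondrion, gave calls for A66 added to palmitate and for palmitate added to A66. No import gene passed the threshold there, though Hspa9 came near it for palmitate added to A66 (adjusted p = 0.0539, edgeR). The list of cytosolic chaperones was chosen with earlier results of these data known. Of the 15 tested, 0 were called with A66 or palmitate alone, 3 were higher for A66 added to palmitate, and 3 were higher for palmitate added to A66, where 2.81% and 2.73% of all genes were called in either direction. Both counts consisted of Hsp90aa1, Hsph1 and Hspa4l. Hsp90aa1, the inducible cytosolic Hsp90, rose by 0.23 (adjusted p = 0.00443) and 0.27 (adjusted p = 6.89e-04) on the log2 scale (edgeR, Benjamini-Hochberg). Hsph1, an Hsp110 exchange factor, rose by 0.21 (adjusted p = 0.0206) and 0.27 (adjusted p = 0.00248), and its relative Hspa4l by 0.29 (adjusted p = 0.00725) and 0.38 (adjusted p = 4.14e-04, edgeR). For A66 added to palmitate, Hsph1 and Hspa4l did not pass without replicate 1 of the combined group, and none of the 3 passed without palmitate replicate 2, where their log2 fold changes were 0.14 for Hsph1, 0.16 for Hsp90aa1 and 0.19 for Hspa4l. For palmitate added to A66, Hsp90aa1 and Hspa4l passed under all 17 alternatives and Hsph1 under 15, failing without A66 replicate 1 or without replicate 1 of the combined group. In the comparison of A66 added to palmitate, the adipocyte markers Cidec and Slc2a4 were lower (log2 fold changes of -0.23 each, adjusted p = 0.0373 and 0.00762), the fibroblast marker Col1a1 was lower (-0.33, adjusted p = 1.75e-04) and Acta2 was higher (0.35, adjusted p = 0.0305, edgeR, Benjamini-Hochberg). For palmitate added to A66, 5 of 8 adipocyte markers and 0 of the fibroblast markers were called, and the macrophage marker Cd68 was higher, as given above for Hspa9. The part of these markers in the chaperone values was not tested. The list had median log2 fold changes of 0.069, 0.10, 0.094 and 0.12 in the 4 comparisons, beside 0.0051, 0.013, -0.019 and -0.024 for the import genes. No difference between the lists was tested.

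**Figure D4:**
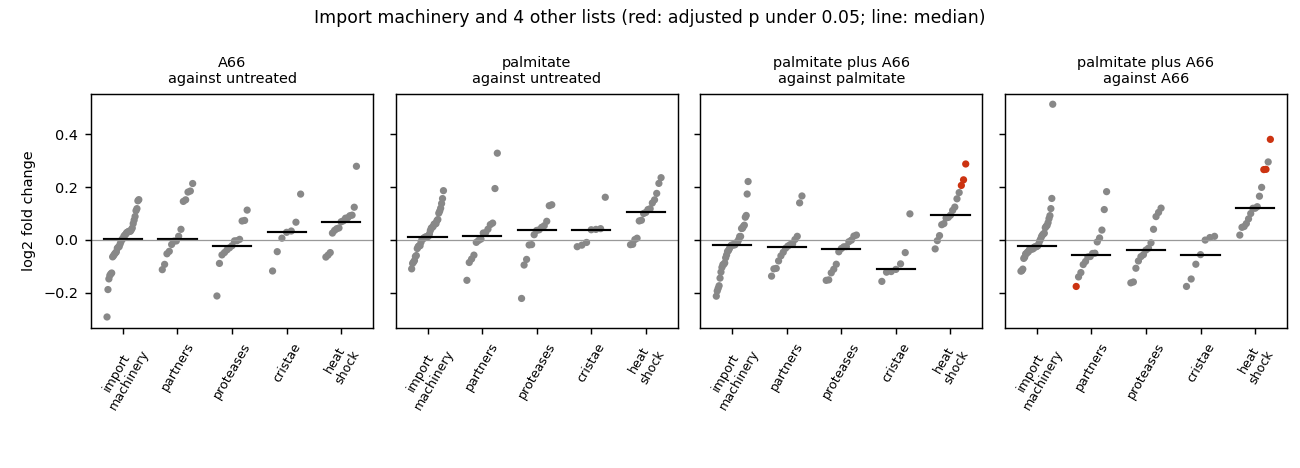
Log2 fold change of every tested gene (points) of the import machinery and of 4 other lists in 4 comparisons, with list medians (lines) and genes at an adjusted p under 0.05 in red (edgeR). The red points are 3 heat shock chaperones in each of the last 2 panels and Mtch1 in the last, and no import gene is red.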

How the data were processed

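Polyadenylated RNA was sequenced in 8 libraries. Alignment to GRCm38 by the authors used TopHat 2.0.11, per the study's methods, and HTSeq produced the deposited file of raw, unscaled counts for each Ensembl identifier, 1 column per library. The strand setting and annotation of the counting are not given in the sources used here. GENCODE M21 gave a symbol for 42548 of the 43629 identifiers, with 307 unmatched ones holding counts, and coordinates and lengths. Groups were taken from the labels. Counts were filtered with filterByExpr (minimum count 10), scaled by TMM and tested with edgeR 4.0.16 under R 4.3.3, by two-sided quasi-likelihood tests and Benjamini-Hochberg adjustment over all genes tested, at a threshold of 0.05. A66 was compared with untreated cells in their 4 libraries, and all other contrasts in a fit of all 8. The biological coefficient of variation was 0.0377 and 0.0406. The procedure was tested on simulated data. The replicates of each group differed by more than counting noise (mean chi-square per gene 6.15 to 8.99).

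The members, gene lists and markers were chosen with earlier results of these data known. Per-library values were given for the member highest per kilobase in each role and would have been given with statistics for any member called, and further members were picked after their values were seen, as stated. Alternatives were RLE normalization, library totals, DESeq2 1.42.0, other filters, a replicate block, a correction for transcript length, other libraries in the fit, and leaving out each library. The authors also deposited a DESeq2 table of their own comparison (mean counts, log2 fold changes, standard errors, test statistics and p-values), which was not used.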

Additional observations from a re-analysis of the deposited data

How the results depend on the processing

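No member changed direction while called in any alternative, and none was called lower. For palmitate plus A66 against A66, the number of members called higher went from 0 to 1, always Hspa9, with DESeq2 (adjusted p = 0.00499), with no filter on low counts (0.00164), with the replicate block (0.0412), with the replicate block and the length correction together (0.0489), and with only the 4 libraries compared in the fit (0.00866). With each library left out in turn that count was 0 or 1, and it was 1 without palmitate replicate 1 or without palmitate replicate 2, libraries outside the comparison. Over the leave-one-out fits the log2 fold change of Hspa9 stayed between 0.15 and 0.16 and its adjusted p between 0.00917 and 0.379 (edgeR). For A66 against untreated and for palmitate against untreated, the leave-one-out counts of members called higher were also 0 or 1, the 1 being Timm13 without untreated replicate 2. The cause of these changes was not tested. The replicate block changed no other member's call in edgeR's test. Deviations of same-numbered libraries from their group means correlated at -0.12 to 0.14 for the 6 pairs of groups, over 11091 genes. With 2 libraries per group, such weak correlations cannot decide whether the numbers pair the libraries. With the replicate block, calls over all genes went from 261 to 282 with A66 and from 171 to 195 with palmitate. They went from 410 to 448 for A66 added to palmitate and from 398 to 438 for palmitate added to A66. In the interaction they went from 1 to 3. Between 14 and 21 of 35 members changed sign under at least 1 alternative in the 5 comparisons, among them members with log2 fold changes of up to 0.22 in size. DESeq2 gave no adjusted p for 1 to 23 members per comparison. Using summed exon length for levels and ratios was added after seeing the data. Of the 7 calls among the neighbouring genes, 5 were lost under at least 1 leave-one-out fit and none under another alternative. With 2 libraries per group, the 95% intervals of members with few counts, such as Dnajc19 and Timm10b, reached past 1.2-fold in every comparison.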
